A study of Caenorhabditis elegans with 2 samples.

Results

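The regions described here are the DPL-1 peaks in promoters of single protein-coding genes on chromosome III of Caenorhabditis elegans. A peak was included when its summit lay between 500 bp upstream and 200 bp downstream of an annotated transcript start of exactly 1 protein-coding gene. Of the 3726 reproducible peaks in the authors' list, which was thresholded by irreproducible discovery rate (IDR), 743 lay on chromosome III and 292 met the rule. The 292 peaks belonged to 286 genes. A further 162 peaks on the chromosome lay in promoters of several genes and 289 lay in no promoter, so single-gene peaks made up 39.3% of its peaks.

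Chromatin immunoprecipitation followed by sequencing (ChIP-seq) was done on whole L1 larvae, the first larval stage, of both sexes. All material came from the strain YL448, whose genotype is given as unc-119(ed3)III with the integrated transgene vrIs83. The transgene holds DPL-1 with a C-terminal GFP and FLAG tag behind pGES-1 and a functional unc-119 copy, and the ges-1 promoter drives expression in the intestine. There was 1 group with 2 biological replicates and no second genotype, stage or treatment, so nothing below compares conditions. The antibody is named only as dpl-1, so the labels do not say whether tagged DPL-1, endogenous DPL-1 or both were recovered. RNA was not measured, so the labelled material could not be checked against marker transcripts, and a peak in a promoter says nothing about the gene's expression.

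DPL-1 is the worm DP protein. DP proteins pair with E2F proteins and bind DNA as a dimer, and in worms DPL-1 and its partner EFL-1 join the retinoblastoma-like protein LIN-35 and the MuvB proteins in the DREAM complex. DREAM is known for keeping cell cycle genes, and in somatic cells some germline genes, repressed. In mammals, E2F-DP dimers recognise TTTCCCGC and related strings, while the MuvB protein LIN54 contacts the cell cycle genes homology region (CHR), whose common form is TTTGAA.

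Many of the strongest peaks carried a CHR string followed, 3 bases on, by CCGC. The sequences of 6 of them are shown because this arrangement recurred at the high end of the signal range. Capitals mark TTTGAA, or its reverse complement TTCAAA, and CCGC. Letters come from the RefSeq genome WBcel235, the assembly that corresponds to ce11, and all are printed 5′ to 3′ toward the gene.
rpl-3, III:3867511-3867540, plus strand: aaatcgaaTTCAAAcaaCCGCgcttgtcgt
rpl-35, III:7854633-7854662, plus strand: aacttcctTTCAAAccgCCGCgctcatcat
ddp-1, III:1859690-1859719, plus strand: aattatcaTTTGAAaaaCCGCcgaaaactg
C27F2.9, III:4963126-4963155, minus strand: gtttttatTTTGAAaatCCGCgcttttgaa
fbxl-2, III:4757125-4757154, plus strand: cttttattTTTGAAtgtCCGCcaacatcgg
smr-1, III:1142944-1142973, plus strand: ttttcacaTTCAAAtacCCGCcgaaaacga

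Some members carried an E2F-type string, shown here in capitals for 3 genes because DPL-1 is an E2F partner. Of the 23 members with such a string within 50 bp of the summit, 11 also held TTTGAA there, and pir-2 held the joined arrangement too. The printed strand is the one on which the string reads in this form.
pqn-80, III:12626400-12626429, plus strand: aaatccaaaacTTTCCCGCcgtttgcacca
pir-2, III:9443632-9443661, minus strand: tggcagccaagTTTCGCGCcgtctcgcact
rnr-1, III:9228363-9228392, minus strand: ctgcgtctcgtTTTCGCGCgttcctctatt

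A further string, CTGCGTCT, is in capitals for the strongest 2 peaks that held it, and it also begins the rnr-1 sequence above.
umps-1, III:10357964-10357993, minus strand: cgcaactttctCTGCGTCTctctccatcgc
C34C12.8, III:3460225-3460254, minus strand: ttcgtgcgtgtCTGCGTCTccatgctttgc

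The genes with a single-gene peak were 286 of the 2640 protein-coding genes of chromosome III, or 10.8%. With shared promoters included, 605 genes, or 22.9%, had an IDR summit in a promoter window. On the other chromosomes 7.5% of protein-coding genes had a single-gene promoter peak, and over the whole genome 7.94% did. These shares are the background for every count of bound genes given below.

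The authors' signal per peak ran from 39.6 to 5289, with a median of 137 and quartiles of 69.9 and 432. Its scale is not stated in the files, so it is used here to rank peaks within a list and to set replicates side by side. Single-gene promoter peaks on the other chromosomes had a median of 113, from 70.5 on chromosome X to 136.7 on chromosome I. On chromosome III, peaks in shared promoters had a median of 255 and peaks in no promoter 77.3. The difference between these classes was not tested, since peaks of 1 experiment are not replicates. Of the 292 peaks, 186 were among the stronger 1863 of the IDR list and 18 were among its strongest 100.

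The strongest peak of the whole IDR list was at rpl-3, which encodes the large ribosomal subunit protein uL3. Its signal was 5289, with 4422 in replicate 1 and 881 in replicate 2, and the summit lay 290 bp upstream of the start. The peak of rpl-35, for the large subunit protein uL29, had a signal of 4038, with 3414 in replicate 1 and 643 in replicate 2. These 2 ribosomal protein promoters ranked 1 and 4 in the replicate 1 list. In replicate 2 the values were lower and the ranks were 2 and 6, with the ddp-1 peak between them at rank 4.

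Mitochondrial functions were represented by several of the 20 strongest peaks. The peak at ddp-1, for the Tim8 subunit that escorts proteins to the inner membrane, had a signal of 3175, with 2487 and 699 in replicates 1 and 2. At cox-5A, a cytochrome c oxidase subunit of the respiratory chain, it was 2953, with 2506 and 447. The pdhk-2 promoter, whose product is a kinase that inhibits pyruvate dehydrogenase, had 2741, with 2262 and 484. Lower in the same group were C29E4.12, an FMC1 homolog, at 1774, C34C12.8, a GrpE-type co-chaperone, at 1645, and ant-1.1, the ADP/ATP translocase, at 1499.

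Another part of the 20 had products whose names point to nuclear roles, though where these proteins act was not measured. The peak of tasp-1, a homolog of the protease taspase, was at 3071, with 2566 in replicate 1 and 496 in replicate 2, and its summit lay 58 bp upstream of the start. C27F2.9 encodes a protein with a JmjC domain, a fold found in histone demethylases, and had a signal of 2890, with 2352 and 546. The peak of smr-1, for a Tudor domain protein, reached 2385, with 1883 and 503. The mRNA export subunit gene thoc-5 had 1695, the Sm protein gene snr-6 had 1365 and mrt-2, for the RAD1 homolog of the DNA damage checkpoint clamp, had 1337.

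The remaining genes among the 20 had varied products. They were fbxl-2, an F-box protein gene, at 2878, umps-1, for pyrimidine synthesis, at 2074, the leucine-rich repeat gene F56A8.3 at 2032, ubc-7, a ubiquitin-conjugating enzyme gene, at 2022, gcn-1, whose homologs activate the kinase GCN2, at 1834, and the ABC transporter gene wht-3 at 1532. Every one of the 20 peaks was matched in both replicate lists.

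**Figure D1:**
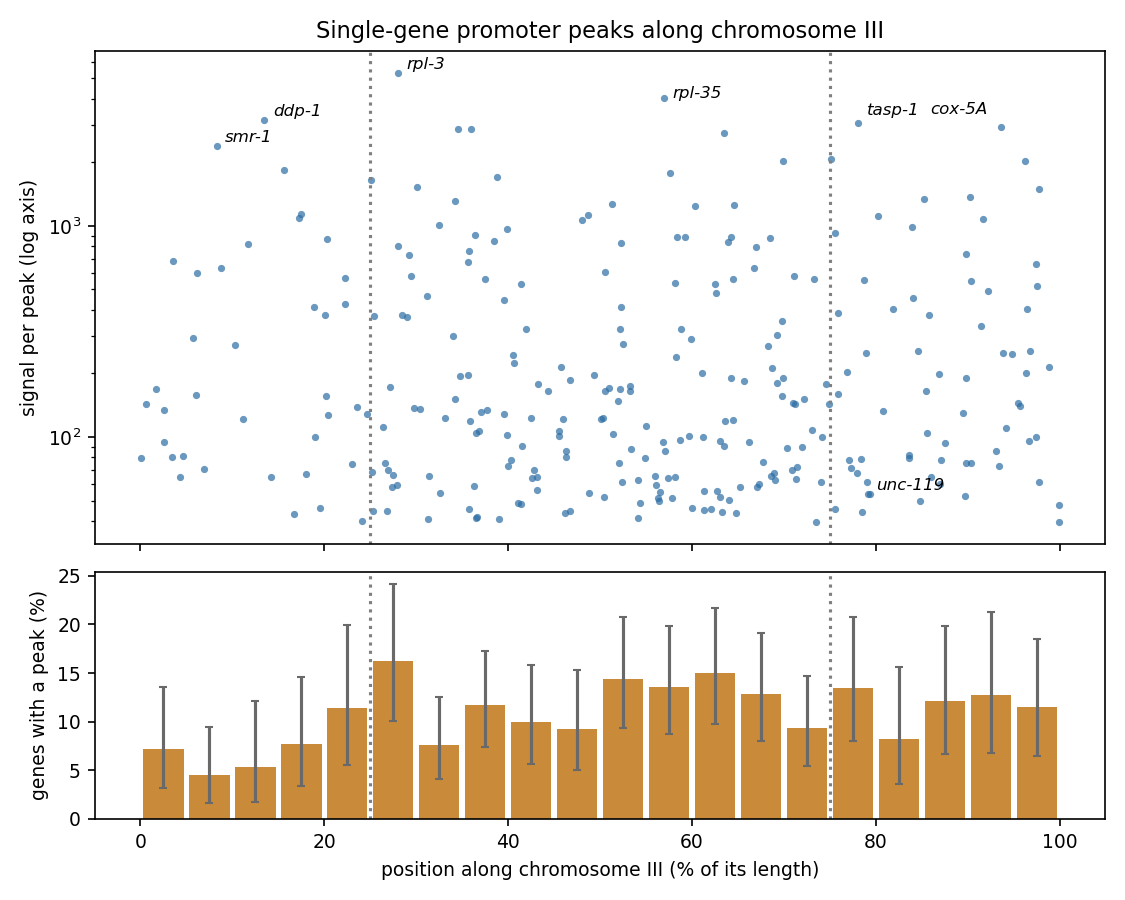
Above, the signal of each of the 292 peaks on a log axis against the position of its summit as a percent of chromosome III, with 7 genes named. Below, the percent of protein-coding genes with such a peak in 20 equal bins, with exact 95% Clopper-Pearson intervals for counting error; dotted lines bound the central part, and the bins hold from 4.48% to 16.2% of genes bound.

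Along the chromosome, the peaks were sparser in the left outer part. In C. elegans autosomes, the centre is gene-rich and holds many conserved genes, while the arms recombine more and hold more repeats. Here the chromosome, 13.8 Mb long, was divided into a central part of 50% of its length and outer parts of 25% on either side, which are not the measured arm boundaries. The central part held 187 peaks (64.04%, exact 95% Clopper-Pearson interval 58.2 to 69.5), the left part 38 (13.01%, 9.38 to 17.4) and the right part 67 (22.9%, 18.2 to 28.2). That was 27.1 peaks per Mb in the centre, 11.0 on the left and 19.4 on the right.

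Genes are also denser in the centre, which held 59.2% of the protein-coding genes, against 20.1% on the left and 20.7% on the right. Per gene, the centre and the right part were close, with 185 of 1563 genes (11.8%) and 64 of 546 (11.7%) bound. The left part was lower, with 37 of 531 genes (6.97%, interval 4.95 to 9.48). Its interval did not overlap that of the central part (10.3 to 13.5) but did overlap that of the right part (9.15 to 14.7), and the differences themselves were not tested. Outer parts with a lower share than their centre also occurred elsewhere, as in the left part of chromosome II, with 4.20%, and the right part of V, with 2.41%. Other outer parts had a higher share than their centre. These were the left part of I (13.4% against 11.7%), the left part of IV (10.7% against 7.18%), the right part of II and both outer parts of X.

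Signal did not follow the density. The median was 150 on the left, 123 in the centre and 166 on the right, and the quartiles of the parts overlapped widely. Strong peaks occurred in all 3 parts. On the left the 5 strongest were ddp-1, smr-1, gcn-1, cic-1 for cyclin C at 1136, and H14E04.2, a winged-helix protein gene, at 1085. In the centre they were rpl-3, rpl-35, C27F2.9, fbxl-2 and pdhk-2, and on the right tasp-1, cox-5A, umps-1, F56A8.3 and ant-1.1.

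The median distance between neighbouring summits was 30.2 kb, and 31 of 291 distances were under 5 kb. The longest stretch without such a peak, 277 kb, lay between arx-3 and zip-1, both in the right part. Next came 253 kb between tufm-1 and ubl-1 and 241 kb between Y22D7AL.10 and ddp-1, both in the left part. Peaks of other classes can lie within these stretches.

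Within the window, which reaches 500 bp upstream but only 200 bp downstream, most summits lay upstream of the start. The median position was -159 bp, with quartiles of -280.5 and -88 bp, and 271 of 292 summits (92.8%) were upstream. The median depends in part on the window. It was -220 bp with a window from 1000 bp upstream and -141 bp from 300 bp upstream. The single-gene peaks of the other chromosomes had a median of -176 bp, with 93.2% upstream. Signal and distance were unrelated as a description, with Pearson's r of 0.01 and Spearman's rho of 0.02 over the 292 peaks on the log2 signal scale. For all 292 peaks, the nearest protein-coding start was that of the gene the peak was assigned to. The rule largely fixes this. A nearer start of another gene escapes it only if the summit lies more than 200 bp downstream of that start.

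The summit lay outside any gene in 221 peaks, within the assigned gene in 56 and within another gene in 13, and 2 lay in both. Summits outside genes had a median signal of 152, against 90.1 for those within the assigned gene, whose quartiles of 59.8 and 181 overlapped the former quartiles of 75.6 and 557. The window's edge decided a few cases. The K12H4.5 summit, with a signal of 885, lay exactly 500 bp upstream and was included. The rps-1 peak, with a signal of 1010, lay 503 bp from the start of ifet-1 and so counted for rps-1 alone. A peak 203 bp downstream of the lit-1 start, with a signal of 57.7, was left out.

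Cell cycle genes were bound more often than the background share, and many of them through shared promoters. Of 15 genes of DNA replication and the G1/S transition on the chromosome, 6 had a single-gene peak and 7 more only a shared one, which makes 13 of 15 against the 22.9% of all genes. The ribonucleotide reductase large subunit gene rnr-1 had a signal of 794, with 687 in replicate 1 and 107 in replicate 2. For the origin recognition gene orc-3 it was 633, with 510 and 122. The helicase subunit genes mcm-6 and mcm-5 had 580 and 463, both with summits about as far upstream, at -205 and -206 bp. The 2 genes of this list without an IDR peak in the promoter were gmn-1 and rnr-2. A pooled peak of 34.0 at rnr-2, 126 bp downstream of its start, fell short of the IDR list.

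Mitotic genes gave 9 single-gene peaks among 32 genes and 10 more shared ones. They were of moderate signal, with a median of 213. The anillin gene ani-1, for the cytokinetic ring, had 546, with 444 and 105 in replicates 1 and 2. The centromeric histone gene hcp-3 had 355, with 294 and 60.8, and plk-1, the Polo kinase gene, had 324, with 280 and 44.0. The kinetochore scaffold gene knl-1 had 291. The peak of such-1, an anaphase-promoting complex subunit gene, was weaker, at 79.8, and had no match in replicate 2. For cdk-1, the main mitotic kinase gene, the peak of 454 was shared with iff-1 and is not a member.

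In DNA repair, 6 of 26 genes had a single-gene peak and 7 more a shared one. The strongest after mrt-2 were brc-1, the BRCA1 homolog, at 804, exo-1, an exonuclease gene, at 658, and rcq-5, a RecQ helicase gene, at 580. The exo-1 summit lay 114 bp downstream of the start, unlike the other 3, which lay 95 to 123 bp upstream.

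Of 10 DREAM and synMuv regulator genes on the chromosome, 3 had a single-gene peak and 1 more a shared one, so 4 of 10 against the 22.9% of all genes. The MuvB core gene lin-9 had a signal of 1254, rank 145 in the IDR list, with 1025 in replicate 1 and 227 in replicate 2. The peak of lin-36, a synMuv B gene, was 536, with 440 and 99.0. The third was gei-4, which held a pair of peaks. At lin-52 and hpl-2, pooled peaks of 22.03 and 23.1 lay below the IDR list, and lin-13, lin-37 and met-2 had no pooled peak in their promoters. The remaining gene of the list without an IDR summit in the promoter was ssl-1.

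Ribosomal protein genes were also bound above the background share. Of 19 cytosolic ribosomal protein genes, 7 had single-gene peaks and 9 more shared ones. After rpl-3 and rpl-35 came rps-1 at 1010 and ubl-1, for a ubiquitin-like ribosomal fusion protein, at 565. The least of the 7 was rps-21 at 324, with 281 in replicate 1 and 48.12 in replicate 2. The listed mitochondrial ribosomal protein genes had a similar share, with 6 of 22 single-gene and 10 more shared, but lower signal. Their single-gene peaks ran from 43.9 at mrpl-11 to 118.9 at mrps-18C, so all 6 lay below the lowest cytosolic value. This difference was not tested, and it does not hold for every such gene. The list leaves out R02F2.9, whose product is named as the mitochondrial large subunit protein mL62, with a signal of 965.

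For other core cellular machinery, both the share bound and the signal varied between lists. Of 24 spliceosome and RNA processing genes, 6 had single-gene peaks, among them snr-6, prp-8, for the central spliceosome protein, at 885, and mog-3 at 844. One of these 6, pqn-80 at 1081, was listed there, but its RefSeq product is an Hpc2-related protein. Among RNA polymerase and transcription genes, 5 of 26 had single-gene peaks, led by emb-5, the Spt6 homolog, at 1317 and the polymerase subunit gene rpb-8 at 672. Proteasome genes had 3 of 8, from 122 at rpn-13 to 189 at rpt-6. The list of ubiquitin enzymes and cullins had 5 of 12, vesicle traffic genes 6 of 26, and mitochondrial import and chaperone genes 3 of 12. The 5 include ubl-1, also counted among the ribosomal protein genes above, and ubq-1, whose product is named only as ubiquitin-related. Nearer the background share were the respiratory chain list, with 2 of 14, and translation factors, with 2 of 12, to which shared peaks added 5 and 6 genes. The respiratory chain list leaves out the members ndus-8, for an NADH dehydrogenase subunit, at 276, and Y82E9BR.3, for an ATP synthase subunit, at 272. The nuclear pore list had only 1 single-gene peak among 8, at npp-18 with 403, but 6 more shared ones. No aminoacyl-tRNA synthetase gene among 6 and none of the 5 genes in the nucleolar list had a single-gene peak. Shared peaks added 1 synthetase gene and 2 nucleolar genes. The exact upper bounds for the single-gene shares were 45.9% and 52.2%, so lists this small cannot show a share below the background. The nucleolar list is short. Members outside it include F10E9.11, for an rRNA-processing protein, at 1241, and let-716, for an rRNA biogenesis protein, at 80.8.

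**Figure D2:**
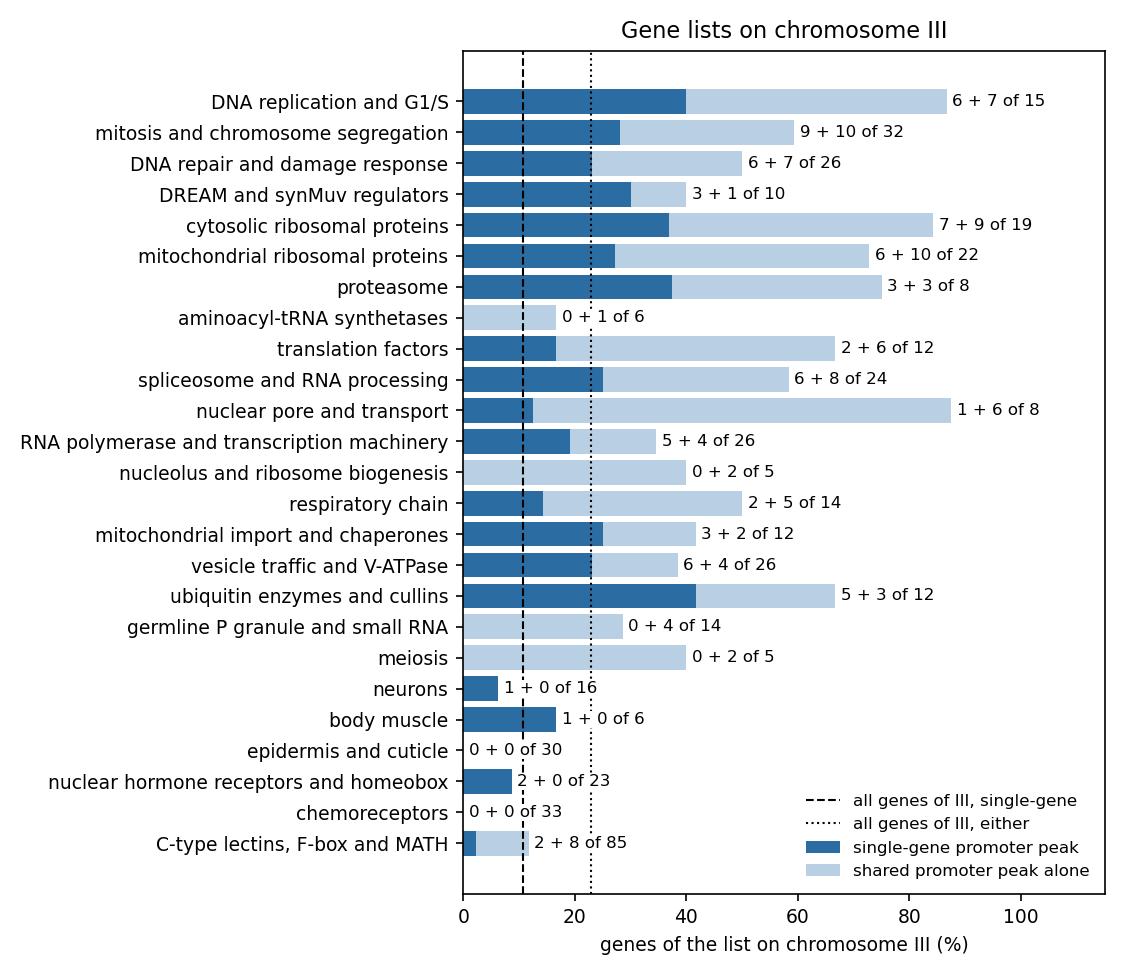
Percent of the protein-coding genes of each list on chromosome III with a single-gene promoter peak (dark) or only a shared promoter peak (light), for lists with 5 or more genes there; numbers give single-gene plus shared-only of all. The vertical lines are the shares of all genes, 10.8% and 22.9%, and the replication list stands at 13 of 15 while epidermis and chemoreceptors stand at 0.

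None of 30 epidermis and cuticle genes and none of 33 chemoreceptor genes had a peak of either kind (exact 95% upper bounds 11.6% and 10.6%). Of 85 genes in the C-type lectin, F-box and MATH list, 2 had a single-gene peak and 8 a shared one. That list was made by gene name, and F-box genes such as fbxl-2 at 2878 and skpt-1 at 448 were outside it. Of 16 neuronal genes, unc-119 alone had one, and of 23 nuclear receptor, homeobox and related transcription factor genes, hlh-11 at 156 and nhr-80 at 79.2 had one. Of 3 intestinal genes, only nhr-80 was bound, and its peak had no match in replicate 2. Of 6 body muscle genes, unc-45, for a myosin chaperone, was bound at 684. No germline P granule or small RNA gene among 14 and no meiosis gene among 5 had a single-gene peak, while 4 and 2 of them had a shared one. In all, 77 of the 286 genes (26.9%) were in at least 1 of the 28 lists, against 485 of 2640 genes (18.4%).

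The unc-119 peak needs to be read with the strain, since the transgene carries unc-119(+) and the endogenous gene lies on this chromosome. Its signal was 53.6, with 40.2 in replicate 1 and 26.8 in replicate 2, and the summit lay 46 bp downstream of a start. Its ratio of replicate 1 to replicate 2, 1.502, was the lowest of all matched members. Reads from the transgene copy and from the endogenous gene cannot be told apart in these files.

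The replicates ranked the peaks alike. Within 100 bp of the summit, 291 of the 292 had a peak in the replicate 1 list and 257 (88.0%, interval 83.7 to 91.5) in the replicate 2 list. Each replicate list holds 30000 peaks and so includes weak ones. Among the strongest 3726 of each list, 284 and 234 were matched. All but 1 of the 146 members with the higher signal were matched in replicate 2, and 76.7% of the 146 with the lower signal. The unmatched 35 had a median signal of 59.6, against 164 for the matched, and the strongest of them were acy-1, an adenylate cyclase gene, at 152, 1 of the gei-4 peaks at 135 and inf-1, for eIF4A, at 123.

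Over the 256 peaks matched in both, the log2 signals had a Pearson's r of 0.95 and a Spearman's rho of 0.93. The points share the chromosome and the IDR selection, which used both replicates. Replicate 1 was 5.02 times replicate 2 at the median, with 10th and 90th percentiles of 3.39 and 9.15. The same ratio was 5.30 for the single-gene promoter peaks of other chromosomes. The peaks that moved most in rank toward replicate 2 were unc-119, phf-15 and wdr-5.1, from places 241, 256 and 223 in replicate 1 to 124, 175 and 143. Those that moved most the other way were rpn-13, from 150 to 227, and K06H7.2, from 166 to 241. At snr-5 the ratio was highest, with 73.9 in replicate 1 and 2.37 in replicate 2.

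**Figure D3:**
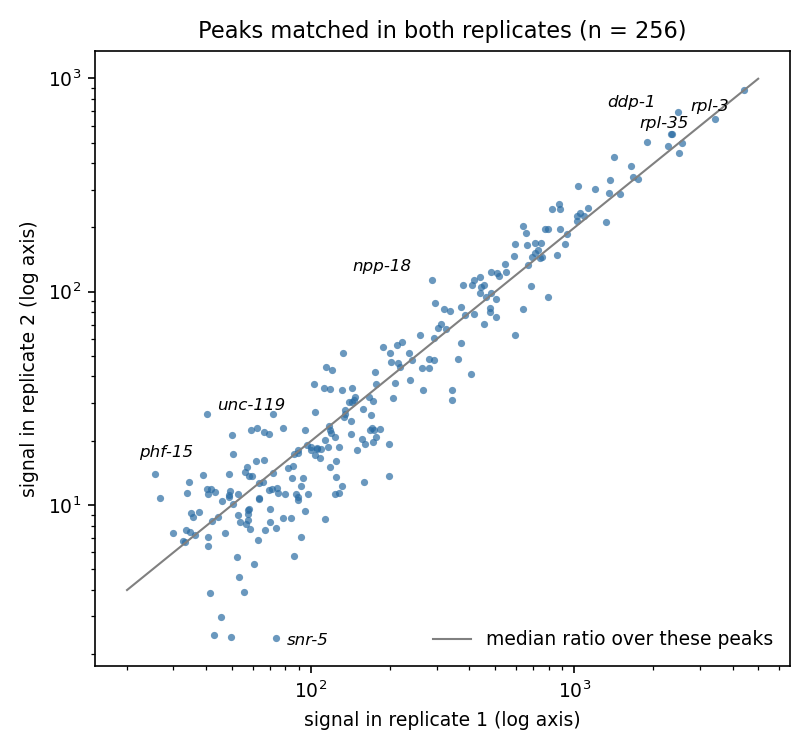
Signal in replicate 2 against replicate 1, both on log axes, for the 256 peaks matched in both lists; the line is their median ratio, 5.02. The points spread more at low signal, with unc-119 and phf-15 above the line and snr-5 below it.

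Among the weakest members were phf-15 at 40.02, ttll-4 at 39.64 and rml-1 at 39.56. Just outside the IDR list, pooled peaks in single-gene windows stood at tat-1 with 39.46, Y37D8A.4 with 39.21 and set-25 with 39.03. The pooled list held 1042 single-gene promoter peaks on the chromosome, in promoters of 912 genes, so the 292 are those with the higher signal. Genes with a pair of member peaks were R02F2.1, crh-1, gei-4, his-72, pcf-11 and rml-1. The stronger peak of crh-1, the CREB homolog gene, had 255, with 214 and 46.4 in replicates 1 and 2, and the other had 49.8 with no match in replicate 2. At his-72, a histone H3.3 gene, the peaks had 75.7 and 52.7, and only the stronger was matched in replicate 2.

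The strings shown above were counted within 50 bp of each summit on both strands. For a background, the same window was placed at 159 bp upstream of the start of each of the 2640 protein-coding genes of the chromosome. The base composition of these background windows was not compared with that of the summit windows. The E2F-type strings TTTCCCGC, TTTGGCGC, TTTCGCGC and TTTGCCGC, counted together, occurred in 23 of 292 members (7.88%, interval 5.06 to 11.6). They occurred in 62 of 2640 promoters (2.35%) and in 8.05% of the single-gene peaks on other chromosomes. The 4 groups of members by signal, 73 peaks each, held one in 8, 4, 6 and 5 peaks from strongest to weakest, and those of the other chromosomes in 49, 27, 16 and 15. Members with one had a median signal of 137, against 136 without. None of the 20 strongest peaks held one, with an exact upper bound of 16.8%.

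TTTGAA alone was no more frequent in the members than in promoters, at 82 of 292 (28.1%) against 811 of 2640 (30.7%). It differed along the signal range. In the same 4 groups the members held it in 47, 15, 13 and 7 peaks from strongest to weakest. On the other chromosomes the 4 groups, of 333 or 332 peaks, held it in 172, 66, 64 and 54. Members with the string had a median signal of 570, against 104.4 without. The related form TTCGAA was near the background, at 7.88% against 7.73%, and TGATAA, the string GATA factors such as the intestinal ELT-2 recognise, was at 3.77% against 11.6%.

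The joined form, TTTGAA or TTCAAA followed by any 3 bases and CCGC, was picked out after the member sequences were read, so its counts on chromosome III are a description. TTTGAA and TTCAAA are reverse complements, so each joined string also holds the CHR string. It occurred in 25 of 292 members (8.56%), 18 of 2640 promoters (0.682%) and 3 of the 2035 promoters with no IDR summit (0.147%). The 20 strongest members held it in 12 cases, and the 4 signal groups in 22, 2, 1 and 0. Members with it had a median signal of 988, against 123 without. The single-gene peaks of the other chromosomes were not used to choose it and held it in 57 of 1330 (4.29%), 51 of them in the strongest group, with medians of 855 and 107.

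**Figure D4:**
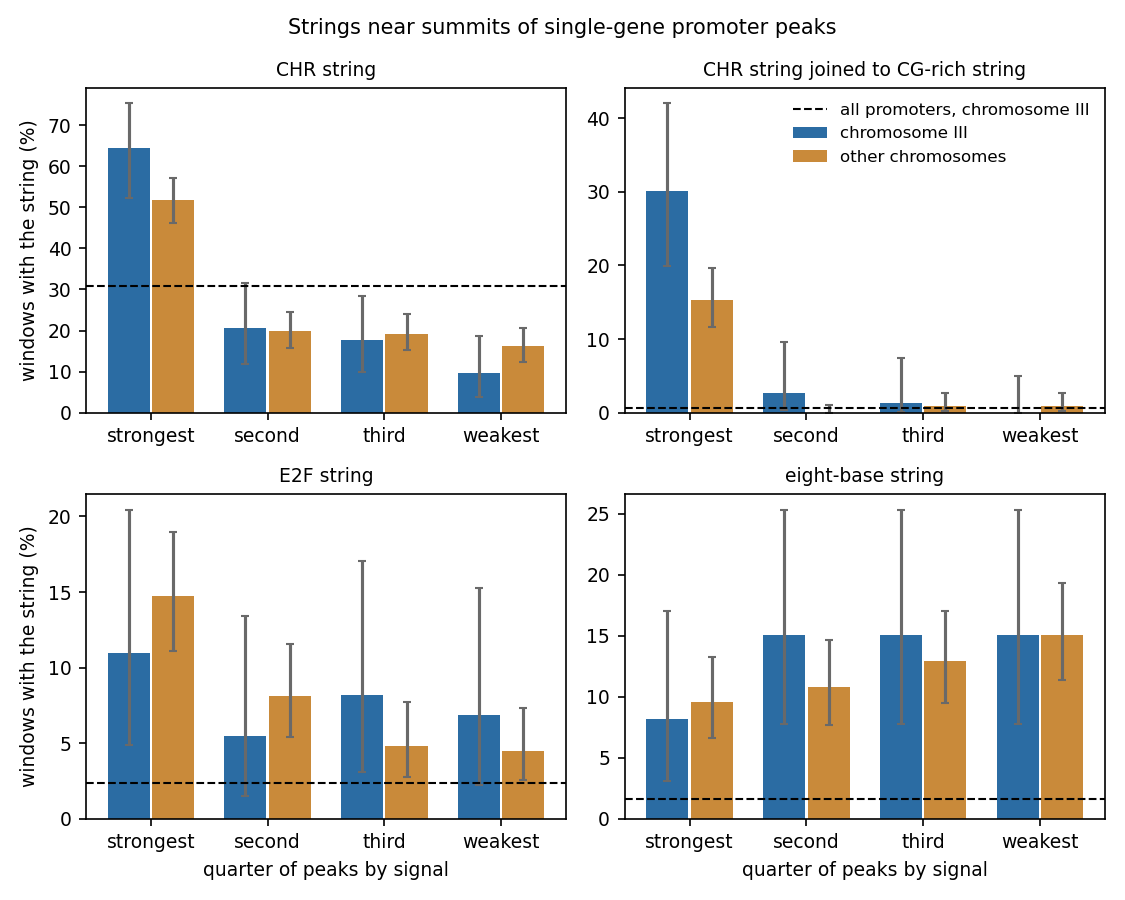
Percent of windows within 50 bp of the summit holding each string, for 4 groups of peaks by signal, with exact 95% Clopper-Pearson intervals; the dashed line is the share of all chromosome III promoters. On chromosome III the CHR string falls from 64.4% in the strongest group to 9.59% in the weakest. There the E2F-type strings and the 8-letter string CTGCGTCT show no such fall, with wide intervals. On the other chromosomes the E2F-type strings fall from 14.7% in the strongest group to 4.52% in the weakest.

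The joined string mostly lay on 1 side of the summit and in 1 direction. With the window widened to 100 bp, 27 members held it, 13 with TTTGAA and 14 with TTCAAA. Its centre lay a median of 31 bp from the summit, with quartiles of 23.5 and 36.5 bp, and 1 lay within 10 bp. It was on the side away from the gene in 25 of 27, and its CCGC end pointed to the gene in 24. On the other chromosomes, 63 peaks held it at a median of 29 bp, 57 of them on the side away from the gene and 56 with the CCGC end toward it.

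**Figure D5:**
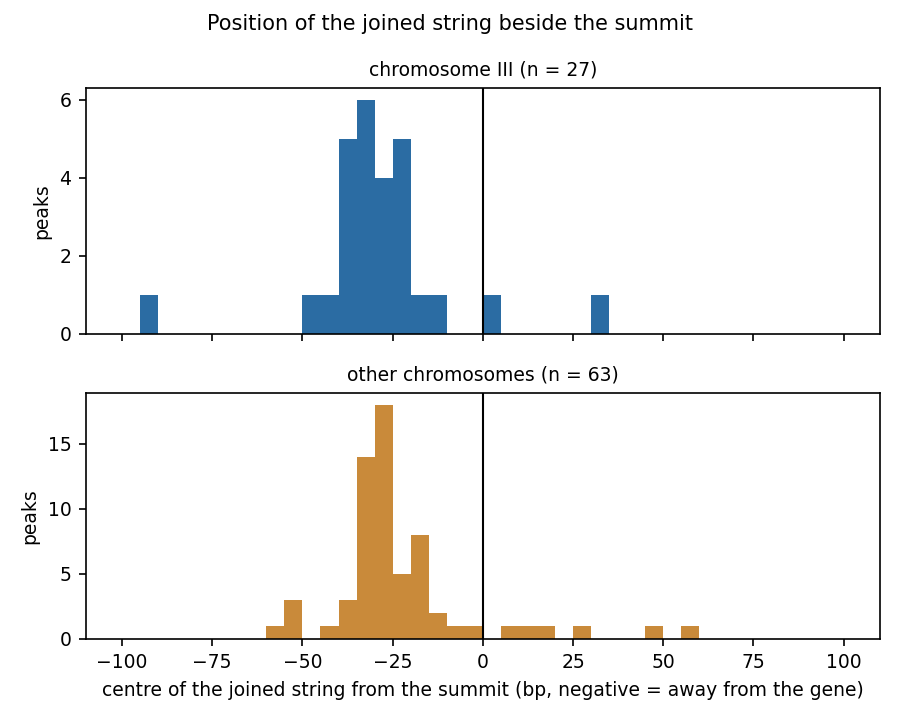
Number of peaks by distance of the joined string's centre from the summit, in bins of 5 bp, with negative values on the side away from the gene, for 27 peaks on chromosome III and 63 on the other chromosomes. Most lie between 20 and 50 bp on the far side of the summit in both panels.

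Most copies of the joined string on chromosome III lay away from peaks. There were 537 in all, of which 42 (7.82%) lay within 100 bp of an IDR summit and 27 of a member's summit. Of 94 genes with a copy in a promoter window, 55 (58.5%) had an IDR summit in the promoter, against the 22.9% of all genes, and 33 had a single-gene peak.

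CTGCGTCT, also picked out after reading the member sequences, occurred in 39 of 292 members (13.4%), 42 of 2640 promoters (1.59%) and 12.1% of the single-gene peaks on other chromosomes. It was spread over the signal range, with 6, 11, 11 and 11 peaks in the 4 groups from strongest to weakest. Members with it had a median signal of 107, against 140 without. The rnr-1 window held both this string and an E2F-type string, as its printed sequence shows.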

How the data were processed

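ChIP-seq of 2 biological replicates of 1 group was analysed. The authors deposited peak lists on ce11, and the ce10 lists were not used. Which aligner and caller made them is not given in the sources used here. Signal values of peaks, as the authors deposited them, have no stated scale. The −log10 q that the authors deposited reached a maximum of 3.64, which 203 members shared, so it was not used to rank. Library depth is unknown, and Clopper-Pearson intervals at 95% cover counting error only. No column of per-sample values was left out.

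Promoter windows used 29314 transcript starts of 19973 protein-coding genes (Ensembl release 115, WBcel235). Summits within 100 bp were matched between lists. Gene lists by name and RefSeq product names gave functions, and 24 listed symbols matched no protein-coding gene. The lists do not hold every gene of a class, so their shares describe the listed genes. The members and lists were chosen with earlier results of these data known. Genes were named if they had the 20 strongest peaks, the 5 strongest in each part of the chromosome, up to 4 strongest per list, paired, weakest, window-edge, rank-changing or unmatched peaks, or were in a short fixed set of DREAM and cell cycle genes and unc-119; others named in passing were chosen after their values were seen. Window assignment and summit matching were tested on simulated data. Python 3.11.15, numpy 2.4.6, pandas 2.3.3, scipy 1.17.1 and matplotlib 3.10.9 were used. Alternatives changed the promoter window, list, match distance, chromosome division and string window.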

Additional observations from a re-analysis of the deposited data

How the results depend on the processing

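Of 35 values recomputed under alternatives, 26 stayed within the limits set for them and 9 moved. With the stronger 1863 peaks of the IDR list alone, 186 members remained, with a median signal of 284 and 96.8% matched in replicate 2; such a list raises the signal by construction. With promoters from 1000 bp upstream, the median signal was 108 and the median summit position -220 bp; from 300 bp upstream the position was -141 bp. These windows shared 222 and 226 of the 286 genes. The middle 4.59 Mb alone held 43.5% of the members, being a shorter stretch. Matching within 50 bp gave 80.8% in replicate 2, and string windows of 100 bp on each side gave 12.3% with an E2F-type string. For the joined string the same wider window, chosen after seeing the data, gave 9.25%.

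Using the strongest 3726 peaks of either replicate's list alone gave 290 to 293 members, 60.7% to 64.2% in the central part, a median position of -162 to -161 bp, an E2F-type string in 7.51% to 7.59%, and 75 to 78 genes in the lists. Replicate 2 alone shared 240 of the 286 genes and replicate 1 alone 276. No paired analysis was possible because the series holds 1 group. The depth of the libraries is unknown, so no limit from depth could be given.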

Other observations

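Small noncoding RNA genes lay within 200 bp of 5 member summits (1.71%). The share was 3.38% for the single-gene promoter peaks of other chromosomes and 12.1% for the 289 chromosome III peaks in no promoter. Of the 286 member genes, 212 (74.1%) carried a gene name rather than only a sequence name, against 1487 of all 2640 protein-coding genes on the chromosome (56.3%), and 14 had no RefSeq product or an uncharacterised one. The bases within 50 bp of the summit had a median GC content of 45.5% in members and in the single-gene promoter peaks of other chromosomes.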
